A study of Mus musculus with 5 samples.

Results

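RXRα peaks were examined at 35 mouse genes that handle fatty acids for energy: the enzymes that activate, transport and oxidise them, and 2 coactivators. The genes were taken by name, and a peak was given to a gene when the protein-coding transcription start site (TSS) nearest to the peak midpoint belonged to that gene. They are 35 of the 21827 protein-coding genes of the annotation, and 18 of the 3423 regions with a peak in both WT lists were theirs. Binding was measured by HT-ChIPmentation, in which immunoprecipitated chromatin is turned into a sequencing library on the beads by a transposase, in alveolar macrophages (AMs) that were washed from the lung and sorted. All mice carried floxed Rxra and Rxrb. WT A and WT G came from mice without the CD11c-Cre transgene (CD11cCre- Rxrabfl/fl). KO A and KO G came from mice with it (CD11cCre+ Rxrabfl/fl), in which the receptor genes are deleted in cells that use the CD11c promoter, a group that includes AMs and other CD11c+ cells. The mice of the assay were 9 weeks old. The fifth sample was an input, against which peaks were called; there is 1 peak list for each other sample. Whether a library held cells of 1 or of several mice is not given in the sources used here, so the spread between libraries may be technical.

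RXRα is a nuclear receptor that binds DNA as a dimer with partners such as the PPARs, usually at direct repeats of the hexamer AGGTCA. With PPARs the repeats are separated by 1 base, an arrangement called DR1. Fatty acids are activated to acyl-CoA by acyl-CoA synthetases, carried into mitochondria by the carnitine shuttle, and shortened by rounds of dehydrogenation, hydration, a further dehydrogenation and thiolysis. Peroxisomes run a similar cycle on other chains. AMs clear surfactant lipid from the airspace and are rich in these pathways, and many of their genes are textbook targets of PPARs.

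The peaks rest on few fragments. Fragment numbers were derived from the fold enrichment and p of each peak, and at the 18 regions they were 12 to 28 in WT A and 7 to 20 in WT G. The shallowest library by this derivation was WT G; WT A had 4.77 times its depth, KO A 2.73 times and KO G 3.58 times. AM identity could not be checked, since peaks do not measure expression. Binding by AM genes is given instead. All 8 AM genes of a fixed list (Siglecf, Itgax, Marco, Car4, Chil3, Pparg, Fabp4 and Krt79) had a peak in each WT list. Over all protein-coding genes 10.4% had a peak in WT A and 16.6% in WT G. All but Fabp4, 7 of the 8, had a region with a peak in both WT lists, beside 8.86% of all genes. In the KO lists 0 (KO A) and 1 (KO G, Itgax) of the 8 had a peak, beside 0.353% and 0.861% of all genes. These counts say only whether RXRα regions lie by these genes, and in the KO cells the receptor is deleted.

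The DNA under the member regions is shown here for the 6 whose summit holds a match to DR1 with at most 3 mismatches, among them both regions with a KO peak. Each line gives 101 bases of GRCm38 (mm10), plus strand, centred on the summit of the strongest WT peak. The 13 bases closest to AGGTCANAGGTCA on either strand are in capitals. Where stretches tie, as with aaacctttgccct in Hadha, only 1 of them is in capitals.
Hadha, chr5:30152155-30152255, intron: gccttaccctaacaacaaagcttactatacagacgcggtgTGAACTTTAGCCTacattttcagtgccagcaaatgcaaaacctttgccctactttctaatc
Etfb, chr7:43443898-43443998, upstream of the TSS: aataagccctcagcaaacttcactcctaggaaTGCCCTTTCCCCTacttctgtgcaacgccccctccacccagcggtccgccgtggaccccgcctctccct
Etfdh, chr3:79628300-79628400, intron: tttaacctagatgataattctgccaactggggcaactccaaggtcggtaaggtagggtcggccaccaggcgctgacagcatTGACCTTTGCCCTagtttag
Acot2, chr12:83987319-83987419, upstream of the TSS: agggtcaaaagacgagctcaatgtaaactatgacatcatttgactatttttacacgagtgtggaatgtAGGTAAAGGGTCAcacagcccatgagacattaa
Cpt2, chr4:107921936-107922036, intron: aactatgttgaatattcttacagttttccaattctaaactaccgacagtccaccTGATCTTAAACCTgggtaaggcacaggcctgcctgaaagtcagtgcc
Ech1, chr7:28827600-28827700, intron: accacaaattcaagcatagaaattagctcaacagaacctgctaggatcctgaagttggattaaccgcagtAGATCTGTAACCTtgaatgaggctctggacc
The capitals differ from DR1 at 3 bases in Hadha, Etfb, Cpt2 and Ech1, at 2 in Acot2 and at 1 in Etfdh.

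The question of the comparison was which of these genes RXRα binds in AMs and what is left of the binding after deletion of the receptors. Of the 35 members, 15 (42.9%, 95% exact binomial interval 26.3 to 60.6, counting error only) were nearest to a region with a peak in both WT lists. Over all protein-coding genes the share was 8.86%. Members lie closer to their neighbours than most genes do: the median stretch of chromosome in which a TSS of the gene was the nearest was 28.3 kb for members and 47.4 kb for all genes. When the genes were put in 10 classes of this stretch and the share of all genes was weighted to the classes of the members, it was 7.51%, which would be 2.63 of the 35. With a reciprocal overlap of at least 50% between the WT peaks, 7 members had a region, and 5.31% of all genes. These shares are set side by side as a description, without a test. The members were chosen with earlier results of these data known, and 41 other genes of the pathway stood at 9.76%.

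These members have a peak in each WT list by construction, so the counts by list are given for completeness. In WT A 17 members (48.6%, interval 31.4 to 66.0) had a peak, against 10.4% of all genes, and in WT G 19 members (54.3%, interval 36.6 to 71.2) had one, against 16.6%. KO A had 0 of 35, which allows a share of up to 8.57% (3 counts of the total), against 0.353% of all genes. KO G had 2 members with a peak (5.71%, interval 0.700 to 19.2), against 0.861%.

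**Figure D1:**
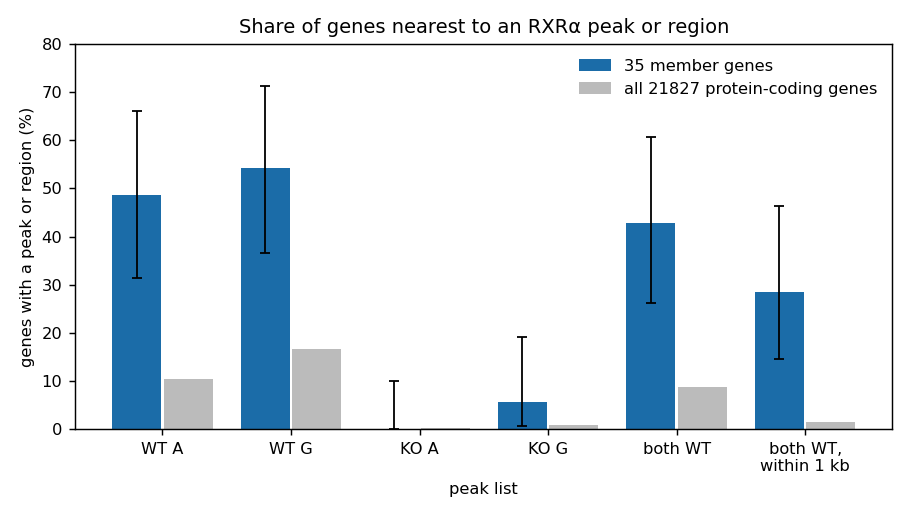
Share of genes (%, vertical axis) with a peak in each list or a region in both WT lists, for the 35 members (blue, with 95% exact binomial intervals) and all 21827 protein-coding genes (grey). Members stand at 42.9% for a region in both WT lists and all genes at 8.86%.

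Members had 23 peaks in the WT A list and 45 in that of WT G. KO A listed 0 and KO G 2. This gave 34.0 ± 15.6 peaks (mean ± SD, n = 2) for WT and 1.0 ± 1.41 (n = 2) for KO, a ratio of 34.0, and the numbers of the WT and KO lists did not overlap. Over all peaks the ratio was higher, 49.9. The exact permutation test (two-sided) gave p = 0.33, which is the smallest that 2 libraries against 2 allow, so the design cannot reach 0.05. The KO lists were short for the whole genome, and member peaks made up 0.484% of WT A, 0.461% of WT G and 0.962% of KO G. Of the member peaks, 20 in WT A and 20 in WT G were part of regions present in both WT lists, so 25 of the 45 in WT G stood in that list alone; over the whole WT G list 63.9% of peaks did. In WT A 3 of 23 stood alone, beside 16.8% of the list.

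**Figure D2:**
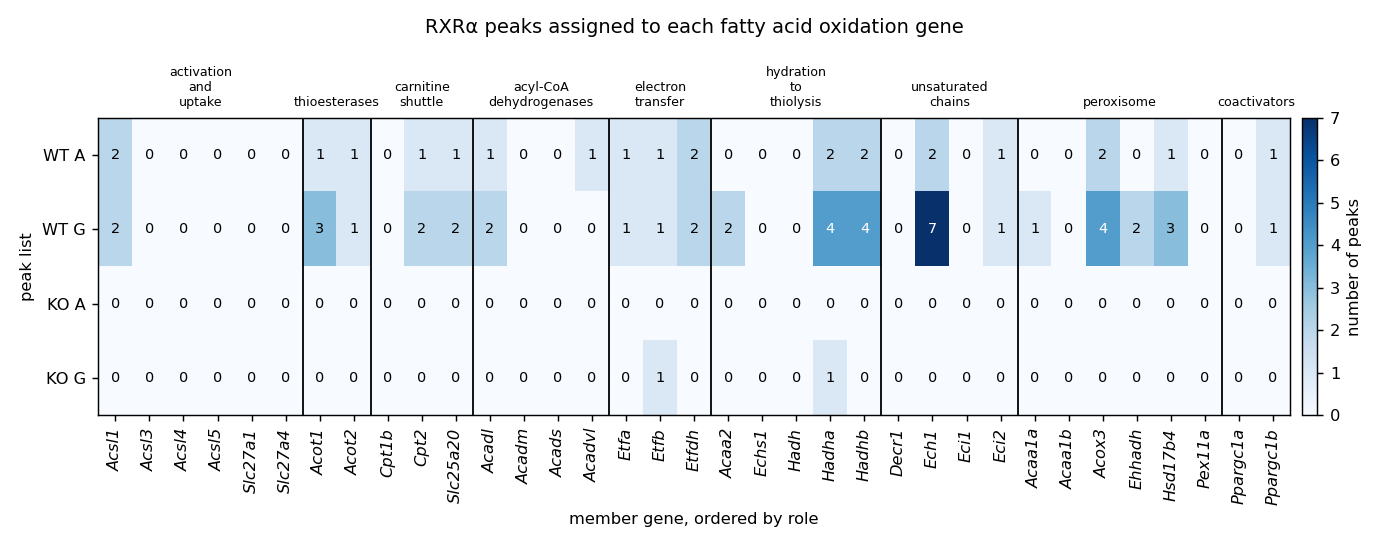
Number of peaks given to each of the 35 members (columns, ordered by role) in each of the 4 lists (rows), with colour and digit showing the number. Ech1 has the most in WT G with 7, 15 members have none in any list, and only Etfb and Hadha have a peak in KO G.

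By role, all 3 electron transfer genes and both thioesterases had a region in both WT lists, as did 2 of 3 genes of the carnitine shuttle, 2 of 4 for unsaturated chains, 2 of 5 for hydration to thiolysis in mitochondria and 2 of 6 peroxisomal genes. It was 1 of 4 for the acyl-CoA dehydrogenases, 1 of 6 for activation and uptake, and 0 of 2 for the coactivators. The groups are too small for these shares to be ordered.

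The long-chain acyl-CoA synthetase Acsl1, which primes fatty acids for oxidation or storage, was the bound member of the activation group, with 2 regions. The one in its promoter (chr8:46470351-46471070, midpoint at -327 bp from the TSS) had a fold enrichment of 6.32 (WT A) and 5.84 (WT G). The other lay in intron 1 of a longer transcript (chr8:46485044-46485380), at -5.75 kb from a downstream TSS of the gene, with a fold enrichment of 8.29 and 5.80. The 2 lists differ by more at the intronic region, where WT A had 20 fragments and WT G 8. Acsl3, Acsl4 and Acsl5, which are other long-chain synthetases, and the fatty acid transport proteins Slc27a1 and Slc27a4 had no peak in any list.

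The thioesterases Acot1 (cytosolic) and Acot2 (mitochondrial), which split acyl-CoA back to free fatty acid and CoA, are neighbours in a gene cluster on chromosome 12. Acot2 had a promoter region (chr12:83987184-83987456, -541 bp) with a fold enrichment of 7.11 (WT A) and 7.74 (WT G). The region of Acot1 (chr12:84020608-84021090) was intergenic, 11.4 kb beyond its TSS and past the end of the gene, and was the stronger, with 9.07 and 9.67. It ranked above 84.4% of the WT A peaks and 91.3% of the WT G peaks by −log10 q.

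In the carnitine shuttle, the region of Cpt2, the inner-membrane carnitine palmitoyltransferase, was in intron 1 (chr4:107921744-107922309, 1.53 kb), with a fold enrichment of 5.93 (WT A) and 6.16 (WT G). Slc25a20, the carnitine-acylcarnitine carrier, had its region on the TSS itself (chr9:108661975-108662229, midpoint at 4 bp, exon 1), with 7.11 and 5.16. The Slc25a20 region was carried by 23 fragments in WT A and 7 in WT G, and in WT G it ranked above 15.3% of peaks only. Cpt1b, the muscle-type outer-membrane enzyme, had no peak.

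Of the acyl-CoA dehydrogenases, which take the first hydrogens from the chain, Acadl (long chains) had a region in intron 1 (chr1:66862527-66862884, 572 bp) with the lowest fold enrichment of all member regions in WT A, 5.05, and 5.26 in WT G. Acadvl (very long chains) had a peak in WT A alone, 379 bp into the gene, with a fold enrichment of 5.54 from 13 fragments. Acadm (medium chains) and Acads (short chains) had none.

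The electron transfer flavoprotein, made of Etfa and Etfb, takes electrons from these dehydrogenases, and Etfdh passes them to ubiquinone. Each had a region within 1 kb of a TSS. That of Etfa (chr9:55512112-55512362, midpoint at 6 bp) was weak in both lists, with 5.38 in WT A and 5.08 in WT G from 13 and 7 fragments. At Etfb (chr7:43443675-43444341, -75 bp) the fold enrichment was 7.50 in WT A and 7.74 in WT G, and KO G had 7.23. The Etfdh region (chr3:79627889-79628487, 509 bp, in intron 1 and by the promoter of the noncoding 4930579G24Rik) had 9.46 and 7.74. Only the Etfb region had a KO peak among these 3.

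The trifunctional protein subunits Hadha and Hadhb, which carry out the last steps of long-chain oxidation, are divergent neighbours that share a promoter. The strongest member region in both lists was in intron 1 of Hadha (chr5:30151825-30153138, 2.68 kb from the TSS of Hadha and -2.77 kb from that of Hadhb). Its fold enrichment was 11.4 in WT A and 13.5 in WT G, above 94.9% and 98.4% of each list by −log10 q, and 6.20 in KO G. Because both TSSs are within 3 kb of it, the region cannot be given to one gene by distance. A second region in the locus was given to Hadhb, in intron 6 beside Mir1960 (chr5:30169947-30170631, 15017 bp), with 5.15 and 7.09. Acaa2, the mitochondrial thiolase, had peaks in WT G alone, 2 of them around its TSS, with 7.74 at the stronger. Echs1 and Hadh, the short-chain hydratase and hydroxyacyl-CoA dehydrogenase, had none.

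Among the auxiliary enzymes for unsaturated chains, Ech1, a dienoyl-CoA isomerase, had 2 regions. The one at its TSS (chr7:28824574-28825900, midpoint at 20 bp) was the widest of the member regions at 1327 bp and had a fold enrichment of 8.68 (WT A) and 11.6 (WT G). The second, in intron 3 (chr7:28827254-28827919, 2.37 kb), had 5.15 and 7.09. WT G held 7 peaks at Ech1 in all and WT A 2. Eci2, an enoyl-CoA isomerase of mitochondria and peroxisomes, had a promoter region (chr13:34994180-34994740, -179 bp) with 6.72 and 7.74. Eci1 and the dienoyl-CoA reductase Decr1 had no peak.

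Of the peroxisomal genes, Acox3, an oxidase of branched chains, had one region at the TSS (chr5:35583100-35583748, -99 bp) and one in intron 18 (chr5:35609602-35610133, 26.3 kb), the farthest of all member regions. At the TSS the lists differed most, with a fold enrichment of 5.15 from 12 fragments in WT A and 11.0 from 16 in WT G, while the intronic region had 7.89 and 7.09. Hsd17b4, the D-bifunctional protein, had a region in intron 2 on chromosome 18, 5.82 kb into the gene, with 7.50 and 7.74. Ehhadh, the L-bifunctional protein, had 2 peaks in WT G alone, the stronger in an intron at 8.67 kb with a fold enrichment of 7.74. Acaa1a, a thiolase, had one WT G peak, at -109 bp, with 8.38. Its close copy Acaa1b and the peroxisome division factor Pex11a had no peak. Short reads from near-identical stretches of Acaa1a and Acaa1b or of Acot1 and Acot2 may be placed on either copy or removed by the mapping quality filter.

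The coactivators Ppargc1a and Ppargc1b raise the transcription of oxidative genes. Ppargc1a had no peak. Ppargc1b had a peak in each WT list at different places, 68.1 kb inside the gene in WT A with a fold enrichment of 5.93, and at -48.2 kb in WT G with 4.09 from 6 fragments, so no region was shared. In all, 15 of the 35 members had no peak in any list. The share of all genes without any peak is not given, but only 16.6% had one in WT G, the longest list.

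**Figure D3:**
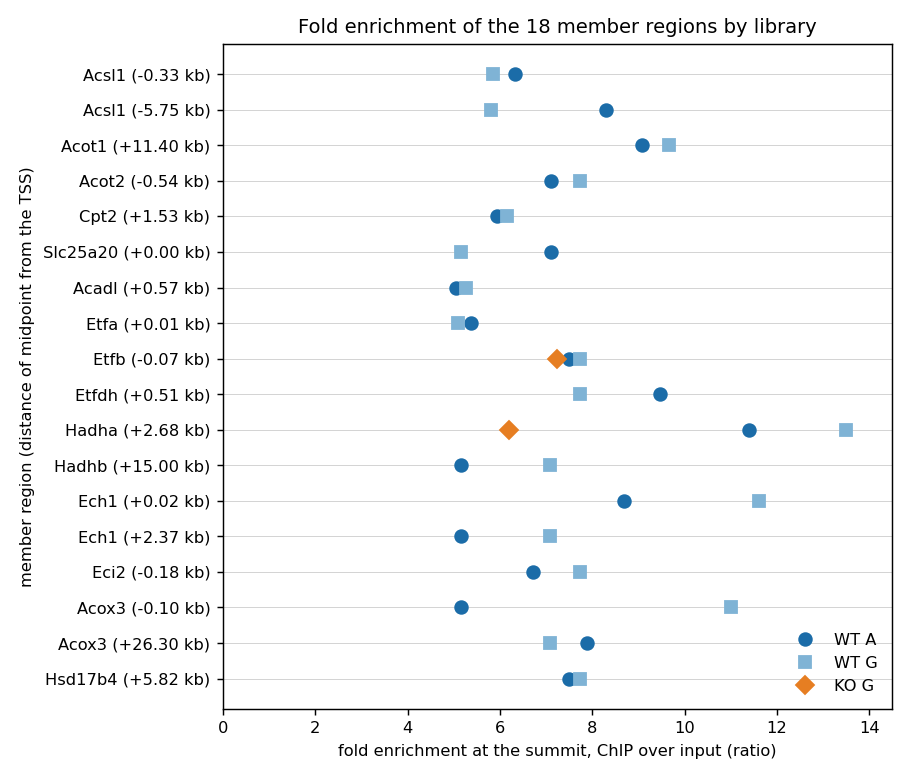
Fold enrichment of ChIP over input at the summit (horizontal axis, a ratio) of the 18 member regions, 1 point per library, with the distance of the region midpoint from the TSS beside each gene. WT A runs from 5.05 to 11.4 and WT G from 5.08 to 13.5, and the KO G points are at Etfb (7.23) and Hadha (6.20).

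By their medians, the member regions were about as strong as all regions in both WT lists. Their median fold enrichment was 7.11 in WT A and 7.41 in WT G, beside 6.72 and 7.60 over all 3423 regions. The median −log10 q was 8.06 for members and for all regions in WT A, and 7.46 and 8.04 in WT G. The strongest regions of the genome were well above any member: fold enrichment reached 22.0 in WT A and 23.2 in WT G over all regions. Because fragments are few, values take steps, and in WT G 5 member regions share the value 7.74, which is 11 fragments over the genome-wide background of 0.551.

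In position they differed more. Of the 18 member regions, 10 (55.6%, interval 30.8 to 78.5) had their midpoint within 1 kb of the TSS, beside 10.5% of all 3423 regions. The median distance was 0.556 kb for member regions and 15.7 kb for all. Genes with less room around them have nearer regions by construction, and weighting all regions to the spacing classes of the genes concerned gave 18.1%. Within 0.1 kb there were 5 member regions (27.8%, against 1.64%): those of Slc25a20, Etfa, Ech1, Etfb and Acox3. Counted by gene, 10 of the 35 members (28.6%, interval 14.6 to 46.3) had a region within 1 kb in both WT lists, beside 1.54% of all genes and 1.41% with the spacing weights.

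The WT lists were also read one by one. In WT A 12 of 23 member peaks were within 1 kb, against 10.9% of the list, and in WT G 20 of 45, against 17.0%. KO G had 1 of only 2 member peaks within 1 kb, with 9.13% of its list, and KO A had no member peak. By annotation, 11 of the 18 regions (61.1%) were in a promoter (1 kb upstream to 100 bp downstream of any TSS), beside 10.8% of all regions. Of these, 8 (44.4%) were in a promoter of the member itself, beside 7.04% of all regions in a promoter of their own nearest gene. The other 3 lay in introns of Etfdh, Hadhb and Hsd17b4 and in the promoter of another feature (4930579G24Rik, Mir1960 and the pseudogene Cd63-ps). Of the remaining regions, 6 were in an intron alone and 1 was intergenic. This distance pattern was noticed in these data. Expression level and chromatin accessibility, which also differ between promoters, were not analysed here, and their part in it was not tested. The study measured both in mature AMs of these genotypes, by RNA-seq and ATAC-seq.

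**Figure D4:**
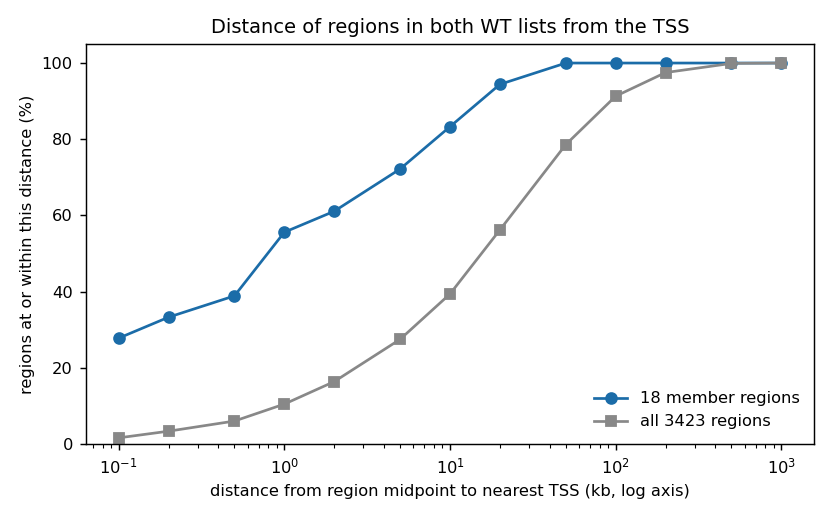
Cumulative share of regions in both WT lists (%, vertical axis) at or within a given distance of the nearest protein-coding TSS (kb, log axis), for the 18 member regions (blue circles) and all 3423 regions (grey squares). At 1 kb the member regions reach 55.6% and all regions 10.5%.

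KO peaks overlapped 2 of the 18 member regions (11.1%, interval 1.38 to 34.7), Hadha and Etfb, beside 5.87% of all 3423 regions. Both came from KO G and rested on 11 fragments at Hadha and 13 at Etfb. Against a background of 0.936 fragments, the −log10 q was 4.15 at Hadha and 6.31 at Etfb. At Hadha the KO G fold enrichment of 6.20 was below both WT values, and at Etfb it was 7.23 against 7.50 and 7.74. These folds are relative to the background of each library, but because 1 is added to pileup and background they still vary with depth. Scaled to the depth of KO G, the WT A fragments at Etfb would be 13.5 and those of WT G 39.4, beside the 13 found, and at Hadha 21.0 and 71.6, beside 11. KO A listed no peak at either, although its lowest listed number was 10 and WT A scaled to it gives 10.3 at Etfb and 16.0 at Hadha. The KO peaks therefore stand in 1 of the 2 KO libraries, and no test was made of their height.

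A missing KO peak means only that the caller listed none. The lowest number of fragments in a listed peak at the genome-wide background was 10 in KO A and 8 in KO G. Scaling the fragments of WT A to the depth of KO A, 10 of the 18 regions would reach 10 fragments, and scaled to KO G all 18 would reach 8. From WT G, all 18 would reach the lowest number of each KO list, at 19.1 fragments or more in KO A and 25.1 or more in KO G. KO A listed 0 of the 18 and KO G 2. By the WT A values alone and this scaling, a loss in KO A was not detectable at this depth at 8 regions. The counts from WT G were fixed by the lowest fragments of any WT G peak and the depth ratios. With the depth ratio used, the count from WT A in KO G was fixed too, since every region in both WT lists had at least 11 WT A fragments. The regions were kept for having WT peaks, so their WT fragments are high estimates of what a KO library would hold without any loss.

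Direct repeats were looked for within 50 bp of the summit of the strongest WT peak, on both strands. A DR1 (AGGTCANAGGTCA, at most 2 mismatches) was found in 2 of 18 member regions, Acot2 and Etfdh, which is 11.1% beside 6.34% of all regions. With at most 3 mismatches, a setting chosen after the values were seen, it was 6 of 18 (Acot2, Cpt2, Ech1, Etfb, Etfdh and Hadha), beside 21.2%. The hexamer AGGTCA alone was found in 4 of 18 (Acox3, Acsl1, Etfdh and Hsd17b4), beside 15.2%. Windows of the same size centred 500 bp to the left and right of the summit held the hexamer in 4 and 1 member regions, beside 6.89% and 7.04% of all, so at member regions the summit count was no higher than that of the left window. They held DR1 with at most 2 mismatches in 1 and 0, beside 1.64% and 1.46%. Anywhere in the region with at most 1 mismatch, DR1 was found in Etfdh alone, beside 4.32% of all regions, and there it occurred 2 times. These sites, read on the strand of the match with the 13 bases in capitals, are as follows.
Acot2, chr12:83987379-83987407, plus strand: tggaatgtAGGTAAAGGGTCAcacagccc
Etfdh, chr3:79628287-79628315, minus strand: tatcatctAGGTTAAAGGTCAtgagaaga
Etfdh, chr3:79628373-79628401, minus strand: gctaaactAGGGCAAAGGTCAatgctgtc
The Etfdh sites lay 49 and 37 bp from the WT A summit of that region, and the Acot2 site 24 bp from its own. No test was made of these shares, an exact DR1 holds the hexamer by construction, and a match is not evidence of binding by a given dimer.

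Binding words of other factors were searched in the same windows on both strands, with no mismatch. The PU.1 word GAGGAAGT was found in 0 of 18 member summits, beside 4.38% of all regions. The C/EBP word TTGCNNAA was found in 1 (Acsl1), beside 11.0%. The ETS word CCGGAAGT, common in promoters, was found in 1 (Slc25a20), beside 0.321%, and the GC box GGGCGG in the same region, beside 1.96%. The median G+C content of the summit windows was 48.0% for member regions and 45.5% for all.

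Other genes of fatty acid oxidation were counted from a list of 41 that excludes the members. Of these, 4 (9.76%, interval 2.72 to 23.1) had a region in both WT lists, close to the 8.86% of all genes. Those described here are Cpt1a, the outer-membrane carnitine palmitoyltransferase of most tissues, Abcd2, a peroxisomal transporter of very long chains, and the receptor gene Pparg. The strongest region of Pparg was at -0.642 kb, with a fold enrichment of 9.85 (WT A) and 14.2 (WT G). Abcd2 had 4 regions, and those at 12.4 and 19.0 kb, both in introns, had 12.6 in WT A and 12.9 and 12.2 in WT G.

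The KO lists kept peaks at 2 of these genes. In intron 1 of Cpt1a (chr19:3325220-3325938, 2.29 kb) WT A and WT G had a fold enrichment of 9.07 and 10.3, and KO A and KO G of 6.61 and 6.20. In the Abcd2 region at 12.4 kb it was 12.6, 12.9, 10.2 and 8.78 in the same order. Both KO libraries had a peak at these regions, which was not so at any member region. Scaled to the depth of KO A, WT A would have 12.6 fragments at Cpt1a, beside 12 found, and 17.7 at Abcd2, beside 19. Scaled to KO G it would have 16.5 and 23.3, beside 11 and 16, and WT G gives more than was found in each KO library. These scaled numbers again leave out fragment length.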

How the data were processed

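Peak lists of 4 HT-ChIPmentation libraries (WT A, WT G, KO A, KO G) were used; the input sample was not analysed here on its own. Per the study's methods the authors used Cutadapt 1.7.1 for trimming, Bowtie2 for alignment to mm10 and samtools 0.1.18 for filtering, and called peaks against the input with MACS3 3.0.0a5 (q threshold 0.05). The deposited lists are 1 per library. The deposited fold enrichment is a ratio of ChIP pileup to local background at the summit, 1 being added to both. At the same summit stand the p and q that the authors deposited as −log10, and the deposited score is 10 times −log10 q. The deposited summit column gives its offset from the peak start.

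Peaks were given to the nearest TSS of a protein-coding transcript (GENCODE M21, basic set, the same build). WT peaks overlapping by at least 1 bp were merged, and the highest peak by −log10 q of each list stands for the region. Fragments at a summit were solved from fold enrichment and −log10 p as a Poisson tail, with whole numbers reproducing p within 0.004 (0.012 in WT A, scaled by 0.8839 to the input). Depth was read from the genome-wide background and the shortest peak length. It stands for the number of fragments without their length, is derived and was not checked against read totals. Intervals are exact (Clopper-Pearson) and cover counting error only. Sequences came from RefSeq GRCm38.p6. Python 3.11.15, numpy 2.4.6, scipy 1.17.1 and pysam 0.24.0 were used, and the steps were tested on simulated data. A read count model, as used in the study between genotypes, needs counts that peak lists lack, so peak numbers were compared by an exact permutation test.

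The members and gene lists were chosen with earlier results of these data known. Named were all members, with values for every region in both WT lists and for the strongest peak of members with a peak in 1 WT list or the KO, and the other pathway genes with a region in both WT lists. Of these, 1 is not reported here. Alternatives were overlap, q, list length, summit, TSS set, distance, each library left out, and the DR1 window and mismatches.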

Additional observations from a re-analysis of the deposited data

How the results depend on the processing

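Of 71 alternative values, 57 were within 1.5 times the value reported, 14 were not, and 0 reversed the direction of the ratio. Under a reciprocal overlap of at least 50%, 7 members and 7 regions remained, 4 of them within 1 kb, and 5.31% of all genes had a region; the members kept were Acot1, Acox3, Eci2, Etfb, Etfdh, Hadha and Slc25a20. The cause was not tested. When WT G was cut to as many peaks as WT A, 12 members had a region, all among the 15, beside 7.36% of all genes. Any TSS within 20 kb added Acaa1a and Acaa1b (17 members, beside 8.40% of all genes). With 1 TSS per gene Eci2 and Etfdh were removed (13 members, beside 8.94% of all genes). RefSeq TSSs added Acaa1b (16 members), and the share over all genes is not given for that setting.

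Leaving out each library in turn gave 15 to 19 members, 18 to 45 regions, 10 to 20 regions within 1 kb and 8.86 to 16.6% of all genes. Where a WT library was left out, each peak of the other WT list was counted as a region, so those counts are not of shared regions. The high values are those of WT G alone, without WT A. Within 1 kb lay 17.0% of the WT G list, beside 10.5% of all regions in both WT lists. Without KO G, 0 member regions had a KO peak, against 2 without any of the other libraries. The ratio of WT to KO peaks at members was 34.0, and 17.0 to 45.0 with a library left out, with 17.0 without KO A. Without KO G no ratio can be given, since KO A has 0 member peaks. Over the other settings it ran from 24.5 to 41.0.

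The letters A and G are shared between genotypes, but nothing in the labels says that they pair mice. With the letter as a replicate block the ratio was 22.5 for letter G, and no value can be had for letter A. The correlation of deviations was not computed, as few regions have a value in all 4 libraries.

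DR1 at the summit was found in 2 member regions, in 1 with at most 1 mismatch (1.26% of all regions), in 4 within 100 bp (11.0% of all), and, in alternatives chosen after seeing the data, in 6 with at most 3 mismatches and in 1 anywhere in the region with at most 1.

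Depth limits the weak regions most: several rest on 7 or 8 fragments in WT G, and single peaks there can be lost to counting error alone.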

Other observations

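Regions in both WT lists within 20 kb of a member, but nearer to the TSS of another gene, were found at 2 members without a region of their own. Acaa1b, a peroxisomal thiolase with no peak by the nearest-TSS rule, had 3 such regions upstream of its TSS, at -7.61, -8.68 and -10.0 kb, each nearer to a TSS of Gm47289. The first (chr9:119164141-119165265) had a fold enrichment of 11.7 (WT A) and 10.3 (WT G), from 29 and 15 fragments. Its WT A value was above that of every member region. Its WT G value was below those of Hadha (13.5) and of the TSS regions of Ech1 (11.6) and Acox3 (11.0). The others had 6.32 and 7.09, and 7.89 and 8.38. No KO peak overlapped them. Acaa1a had 1 region at -18.0 kb, in the promoter of Oxsr1, with 6.72 and 9.03. Acox3 had a further region at -4.59 kb, nearer to Trmt44, with 5.54 in WT A and 7.09 in WT G.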
